A study of Mus musculus with 4 samples.

Results

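Cones are the photoreceptors of daylight and colour vision. They were examined here through the Cone column of a count table that covers 6 retinal cell classes, where the other 5 columns stand for rods (Rod), bipolar cells (BC), amacrine cells (AC), ganglion cells (RGC) and Müller glia (MG). The genes described were the 3515 gene identifiers with 100 or more Cone counts, out of 16702 in the table, of which 11805 had any Cone count. Of these, 3459 were Ensembl genes and 56 were loci known only by position, and together they held 97.8% of all Cone counts. The genes just inside and just outside the minimum were 12 genes with 100 counts and 19 genes with 99.

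The material was retina of male wild-type C57BL6/J mice, with no drug or allele in any group. Papain-dissociated cells gave 4 single-cell cDNA libraries that were read end to end on a nanopore instrument, and each count was assigned to a transcript isoform. No enrichment was applied to 2 libraries, of which 1 was from postnatal day 40 and the other carries no age in its labels, 1 library had CD73 enrichment at postnatal week 8, and 1 had CD90.2 enrichment at postnatal month 4. CD73 lies on the surface of photoreceptors, and CD90.2 on that of ganglion cells and some other neurons. The protocol describes magnetic removal of CD73-positive cells, whereas the design text names FACS. The class columns name no library or animal, so each class is 1 pooled sample, and enrichment, age and class cannot be told apart. No test was possible, and genes were called by size alone. In pooled columns, fewer cells expressing a gene and less RNA per cell cannot be told apart.

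The Cone column held 7307134 counts, against 3509890 in RGC, 6133094 in MG, 29010038 in BC, 48248340 in AC and 55437340 in Rod. Each column was divided by its total and multiplied by 1000000 to give CPM. A count of 0 allows up to 3 counts, which is 0.411 CPM in Cone and 0.855 CPM in RGC. Intervals on a CPM (exact Poisson) and on a share (Clopper-Pearson) are 95%, treat counts as independent and take in counting error alone. A molecule may have been read more than once, so the intervals may be too narrow.

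A cone catches light in its outer segment, where a cone opsin activates the G protein transducin, transducin activates the phosphodiesterase PDE6, and the fall in cyclic GMP closes a cyclic-nucleotide-gated channel. Rods run the same chain with their own copies of most of these proteins, while several of the proteins that quench the signal or return calcium feedback serve both cell types. Mouse cones make a short-wavelength opsin (Opn1sw) and a middle-wavelength opsin (Opn1mw), in proportions that change across the retina and with many cells making both.

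The 2 opsin messages were spliced in several ways in cones, and the junctions concerned are shown first. Sequences were read from GENCODE M21 transcripts (GRCm38), 5′ to 3′, with 20 bases of the neighbouring exons on each side. For Opn1mw (chromosome X, plus strand), capitals mark exon 4, chrX:74139803-74139968, 166 bases long and coding in the reference transcript:
Opn1mw, exon 4 included: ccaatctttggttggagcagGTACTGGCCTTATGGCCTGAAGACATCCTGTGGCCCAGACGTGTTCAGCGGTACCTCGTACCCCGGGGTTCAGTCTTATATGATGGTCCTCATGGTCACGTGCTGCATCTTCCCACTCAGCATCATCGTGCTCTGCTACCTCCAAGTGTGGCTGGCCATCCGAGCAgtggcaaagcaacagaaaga
Opn1mw, exon 4 skipped: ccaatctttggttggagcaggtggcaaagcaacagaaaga
Opn1mw, exons 4 and 5 skipped: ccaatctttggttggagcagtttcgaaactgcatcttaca

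For Opn1sw (chromosome 6, minus strand), capitals mark 24 bases, chr6:29379299-29379322, that some messages keep at the end of exon 3. They are exonic in the non-coding transcript Opn1sw-202 and intronic in the reference transcript Opn1sw-201:
Opn1sw, exon 3 longer: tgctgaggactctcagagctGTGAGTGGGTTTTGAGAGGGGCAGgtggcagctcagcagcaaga
Opn1sw, exon 3 as in Opn1sw-201: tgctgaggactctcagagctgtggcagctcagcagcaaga

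Both genes also used a splice donor inside the 240-base exon that is exon 5 in Opn1mw (chrX:74143446-74143685) and exon 4 in Opn1sw. Use of that inner site removes 189 bases in each gene. The 2 stretches around it are shown with the first 20 removed bases in capitals:
Opn1mw, exon 5 around the inner site: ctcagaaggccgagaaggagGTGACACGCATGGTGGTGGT
Opn1sw, exon 4 around the inner site: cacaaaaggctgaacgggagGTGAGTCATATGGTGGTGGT
These exons of 240 bases had 147 identical positions (61.3%), and 30 of the 40 bases around the inner site were identical (75.0%).

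Of the 127798 Opn1mw counts in Cone, 69.3% (69.1 to 69.6) came from the reference isoform with all 6 exons. Exon 4 was missing from 25.5% (25.3 to 25.8). As 166 is not a multiple of 3, its loss shifts the reading frame. Exon 5, whose 240 bases are a multiple of 3, was missing from 13.17% (12.98 to 13.35), and both exons were missing from 8.01%. The inner site of exon 5 was used by 2.19%, on messages that also lacked exon 4. The share without exon 4 was 26.0% (25.2 to 26.7) among the 13639 Opn1mw counts in Rod, 25.9% (24.4 to 27.5) in BC, 26.8% (21.6 to 32.5) in AC and 21.5% (18.0 to 25.4) in MG. All of these intervals except that of MG include the Cone value, so use of exon 4 in the Opn1mw messages counted in AC, BC and Rod did not differ from Cone beyond counting error. Loss of both exons was at 4.74% (3.06 to 6.98) in MG, below Cone, and loss of exon 5 at 14.8% (13.5 to 16.1) in BC, above Cone.

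Opn1sw was spliced more uniformly, with 80.0% of its 125764 Cone counts on the reference isoform. The 24 extra bases were present in 14.7% (14.5 to 14.9) and the inner donor was used by 9.45% (9.29 to 9.62). In Rod these shares were 16.0% (15.5 to 16.5) and 9.86% (9.45 to 10.3), the first above the Cone interval. The inner donor was thus used more by Opn1sw than by Opn1mw in the same column, with intervals that do not overlap. In RGC neither opsin had a count.

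**Figure D1:**
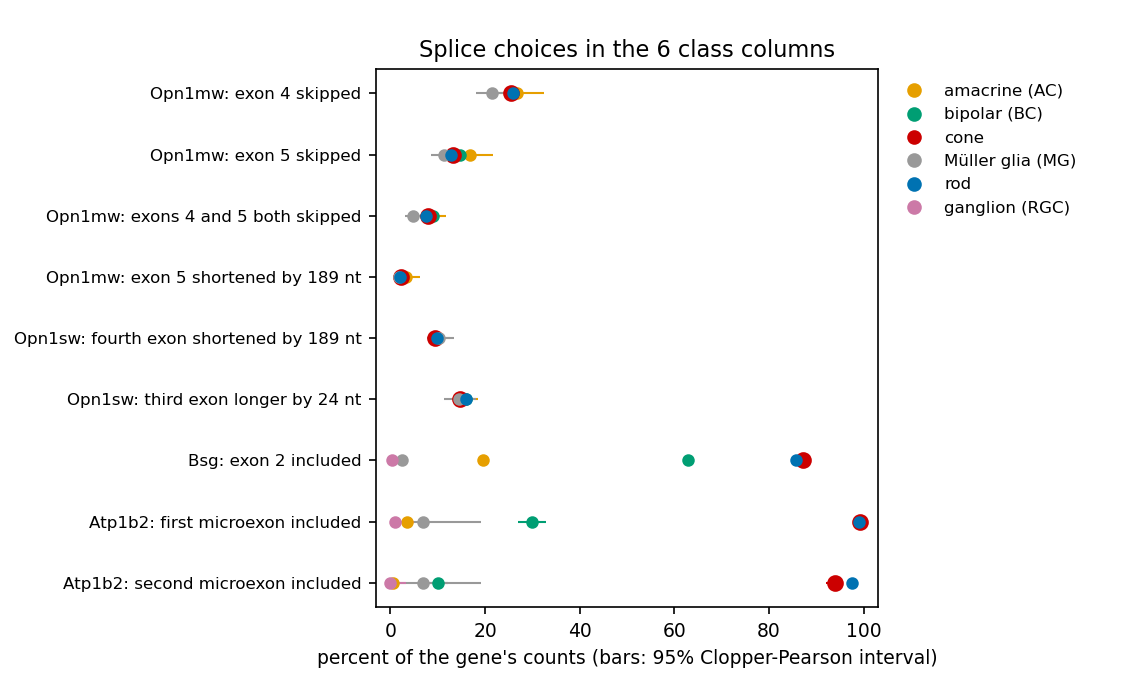
Share of each gene's counts that carry a splice choice (percent, x axis) in each class column, with 95% Clopper-Pearson intervals; columns with under 20 counts of the gene are not drawn. For exon 4 of Opn1mw, skipping is at 25.5% in Cone, 26.0% in Rod and 21.5% in MG, whereas exon 2 of Bsg and the microexons of Atp1b2 are high in cone and rod and lower elsewhere.

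Phototransduction genes of cones were highest in the Cone column without exception: 11 of 11 listed genes. Of the 3515 genes, 111 (3.16%) reached the size used here for a higher gene, a Cone CPM at least 4 times the mean of the other 5 columns, and 137 (3.90%) reached the size for a lower gene, at most 0.25 of that mean. All 10 cascade genes with 100 or more Cone counts were among the higher genes, with a median log2 ratio of 7.01 beside -0.02 over all genes. Whether these genes served the submitters in naming the class is not known from the labels, so their levels describe the column and do not test its name.

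Opn1mw stood at 17489 CPM in Cone, 246 in Rod, 104 in BC, 82.5 in MG and 5.58 in AC. Opn1sw stood at 17211 CPM in Cone, 358 in Rod, 85.4 in BC, 72.9 in MG and 14.8 in AC. The Cone value was 200-fold (191 to 208) and 162-fold (156 to 168) the mean of the others. The 2 opsins had almost equal counts in cones, where Opn1sw made up 49.6% (49.4 to 49.8) of their sum. Its share was higher in the opsin counts of Rod, at 59.2% (58.7 to 59.8), and of AC, at 72.7% (69.8 to 75.4), and lower in BC, at 45.1% (43.7 to 46.4). In MG it was 46.9% (43.7 to 50.1), an interval that includes the Cone value. The intervals of Rod, AC and BC thus lay apart from that of Cone, and that of MG did not.

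Transducin has 3 subunits in cones. Gnat2, the alpha subunit that carries the signal, had 1605 CPM in Cone, 85.9 in BC, 36.0 in Rod, 8.48 in MG, 1.31 in AC and 0 in RGC, a ratio of 61.0 (56.0 to 65.7). Gngt2, the gamma subunit, had 1708 CPM in Cone and at most 45.1 elsewhere, in Rod, for a ratio of 91.3. Gnb3, the beta subunit, was the least restricted: 4654 CPM in Cone stood beside 2717 in BC, 119 in Rod, 78.8 in MG, 18.9 in AC and 5.41 in RGC. Gnb3 also serves ON bipolar cells, and its ratio of 7.92 was the lowest of the called cascade genes.

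Pde6h, the small inhibitory subunit of cone phosphodiesterase, alone took 6.29% of all Cone counts, at 62874 CPM (62693 to 63056). It had 1222 CPM in Rod, 531 in BC, 388 in MG, 36.9 in AC and 0 counts in RGC, so the ratio was 144 (142 to 147). Pde6c, the catalytic subunit, had 167 CPM in Cone (1220 counts), 2.93 in BC, 2.71 in Rod, 1.63 in MG, 0.0207 in AC and 0 in RGC. The ratio of Pde6c was 115 (71.9 to 163).

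The channel was represented by few reads. Cnga3 had 101 counts in Cone (13.8 CPM), 4 in BC, 1 in MG and 0 in AC, Rod and RGC, the highest ratio of any Ensembl gene at 230, with a counting interval from 22.9 to 2014. Cngb3 had 24.5 CPM in Cone, 4.17 in BC, 0.539 in AC, 0.253 in Rod and 0 in MG and RGC, a ratio of 24.7. Slc24a2, the cone sodium-calcium exchanger, had 27 Cone counts and so fell below the minimum. Its 3.70 CPM was nevertheless the highest of the 6 columns, above 1.10 in BC. Arr3, the arrestin of cones, had 413 CPM in Cone (399 to 428), 7.81 in Rod, 2.38 in BC, 1.63 in MG, 0.249 in AC and 0 in RGC, a ratio of 171 (124 to 217).

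**Figure D2:**
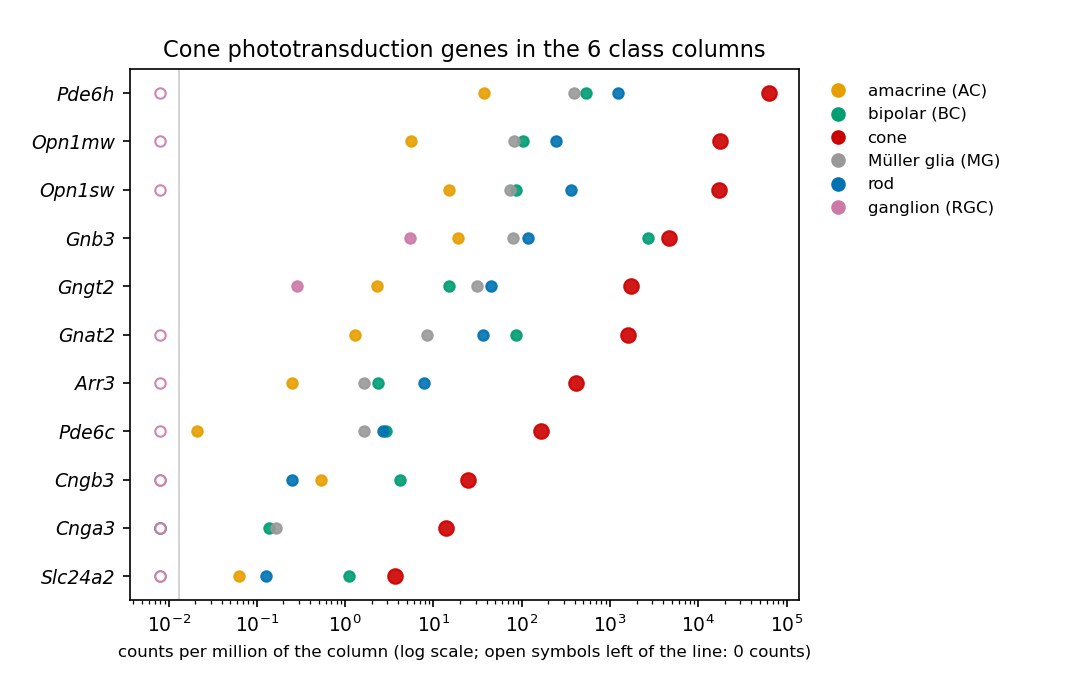
CPM (log scale, x axis) of the 11 cone phototransduction genes in the 6 class columns, with columns at 0 counts drawn as open symbols left of the line; Cnga3 is at 0 in the amacrine, rod and ganglion columns. The Cone column is the highest for every gene, and only Gnb3 has another column within a factor of 2, bipolar at 2717 CPM beside 4654.

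Rod phototransduction genes fell into separate bands in the Cone column. Gnat1, the alpha subunit of rod transducin, had 90.6 CPM in Cone against 2221 in Rod, which is 4.08% of the Rod value. The Rod-relative level was 5.22% for Gnb1, 6.84% for Pde6a, 2.53% for Pde6b, 3.47% for Cnga1 and 4.93% for Cngb1. Nrl and Nr2e3, the transcription factors that set rod identity, stood at 4.53% and 5.12%. Guca1b, a calcium sensor of guanylate cyclase from the list of recovery genes, stood at 7.35%. Among the 11 rod cascade genes, 7 had 100 or more Cone counts, and 4 of those, Gnat1, Gnb1 and Cngb1 among them, were lower genes and 3 were between the sizes. In the MG column Nrl stood at 7.86% and Gnb1 at 7.44% of Rod, above their Cone levels, whereas Gnat1 stood at 0.984% there. In AC these genes were at 0.671%, 0.656% and 0.876% of Rod.

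A second set of genes stood far above that band. Gngt1, the rod transducin gamma subunit, had 21831 CPM in Cone and 44574 in Rod (49.0%), while it reached 5190 in MG and 6378 in BC. Pde6g, the rod counterpart of Pde6h, had 14968 CPM in Cone and 29998 in Rod (49.9%), with 3194 in MG and 815 in BC. Sag, the rod arrestin, had 5351 CPM in Cone and 9645 in Rod (55.5%). In MG these genes were at 11.6%, 10.7% and 9.02% of Rod, beside 7.86% for Cngb1 and Nrl, 7.44% for Gnb1, 3.27% for Cnga1, 3.04% for Pde6b and 0.984% for Gnat1 there. No test of the 2 bands was made.

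Most genes of signal recovery and calcium feedback with 100 or more Cone counts stood well above that band, Guca1b at 7.35% being the exception. Grk1 (the opsin kinase) stood at 64.3% of Rod, Rcvrn (recoverin, which restrains that kinase) at 68.1%, Gnb5 at 63.3%, Unc119 at 57.3% and Pdc (phosducin) at 34.6%. Guca1a, an activator of guanylate cyclase, exceeded the rod level: 15151 CPM in Cone, 10507 in Rod, 899 in MG, 328 in BC, 65.8 in AC and 0 in RGC. Aipl1, the chaperone of phosphodiesterase, did so as well, with 3474 CPM in Cone, 2304 in Rod, 272 in MG, 111 in BC, 15.9 in AC and 0 in RGC. Of 13 listed genes, 12 were in the table, and of the 9 with 100 or more Cone counts these 2 were higher genes, 0 were lower genes and 7 lay between. Pde6d, which carries prenylated proteins to the outer segment, was at 1711 CPM in Cone and 796 in Rod, with a ratio of 3.50 that missed the size for a higher gene.

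**Figure D3:**
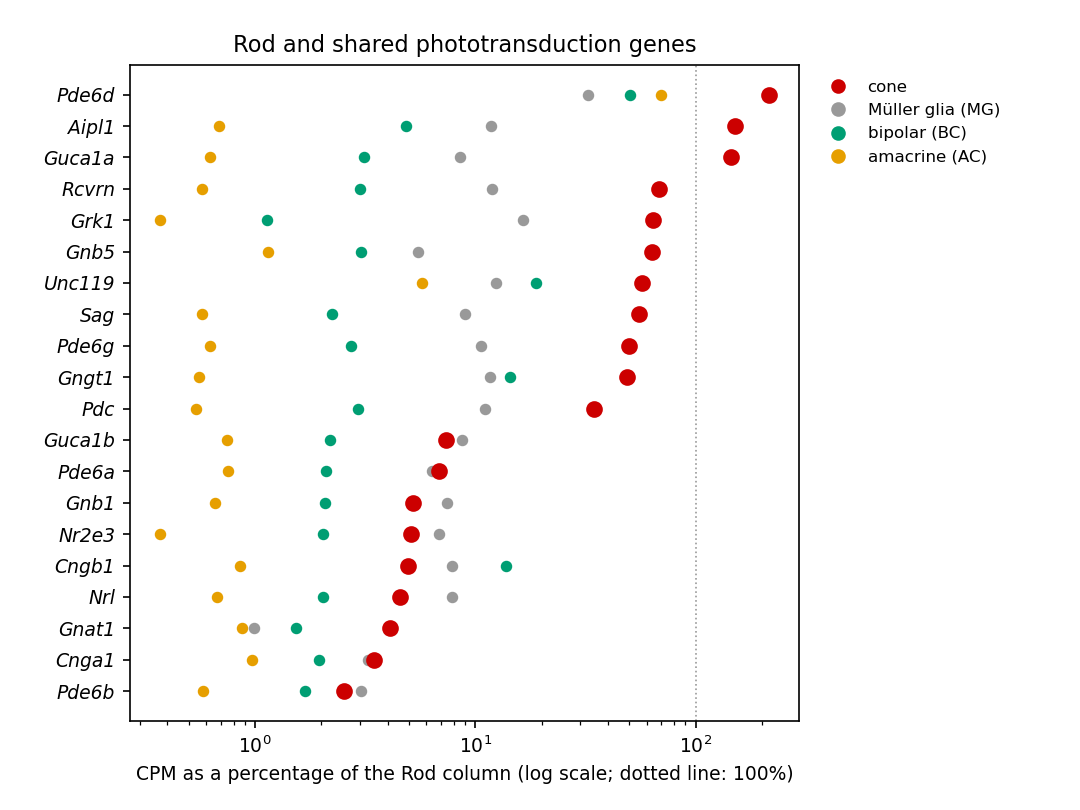
CPM in the cone, Müller glia, bipolar and amacrine columns as a percentage of the Rod column (log scale, x axis) for 20 rod, shared and regulatory phototransduction genes with 30 or more Cone counts. In Cone, the genes from Pde6b (2.53%) to Guca1b (7.35%) lie well below the group from Pdc (34.6%) upward, and 3 genes lie above 100%.

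Marker genes of other classes were counted in the Cone column. The 8 rod markers summed to 43036 CPM in Cone, 105407 in Rod, 10516 in MG, 7778 in BC, 627 in AC and 0.570 in RGC, and the Cone sum was carried by Gngt1, Pde6g and Sag. The marker lists of the other classes, 8 genes each, were sparse in Cone: the bipolar list summed to 3.03% of its own column, the Müller glia list to 0.936%, the amacrine list to 0.359% and the ganglion list to 0.350%. Trpm1, Gad2, Tfap2a and Pou4f1 had 0 Cone counts. An exception was Nefh, a neurofilament gene on the ganglion list, which had 16.4 CPM in Cone, 5.43 in Rod and 3.13 in RGC and was a higher gene with a ratio of 4.78. Genes of red blood cells summed to 242 CPM in Cone, of microglia to 53.8, of horizontal cells to 24.8 and of pigment epithelium to 18.6. The part of rod RNA in the results on genes that both photoreceptors express was not tested.

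With Rod left out of the mean of the other columns, 265 genes were higher genes in place of 111, and 110 of the 111 were among them. Across the 111 higher genes, which held 14.6% of Cone counts, the Cone column was the highest in 108. The highest column other than Cone was Rod for 59 of the 111, BC for 27, MG for 14, RGC for 8 and AC for 3. Over all 3515 genes it was Rod for 1114, AC for 713, BC for 603, RGC for 561 and MG for 524. Of the 111, 61 (55.0%) had no count in the shallow RGC column, compared with 6.66% of all 3515 genes. RGC is part of the mean that the rule used, so this contrast follows in part from the rule. The gene nearest the size from above had a ratio of 4.01 and the nearest below it 3.98. Over all genes the Cone column was the highest in 462 (13.1%). The rule itself asks for a high Cone value, so the 108 of 111 are no separate result.

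Several of the highest ratios belonged to genes with no part in the visual cascade. Ppp1r14d, an inhibitor of protein phosphatase 1, had 194 counts in Cone, 12 in Rod, 3 in MG, 2 in BC and 0 in AC and RGC, a ratio of 171 (36.0 to 691). Its only isoform started 10991 bases from the nearest RefSeq start. Whether its counts stand for the full Ppp1r14d message was not tested. Agr2, a protein disulfide isomerase of the endoplasmic reticulum, had 434.5 CPM in Cone, 7.035 in Rod, 4.00 in BC, 2.12 in MG, 0.166 in AC and 0 in RGC, a ratio of 163 (119 to 207). Ffar4, a receptor for long-chain fatty acids, had 22.7 CPM in Cone and at most 0.379 elsewhere, in BC, for a ratio of 134 (29.6 to 496). Otop3, a proton channel of the otopetrin family, had 130 CPM in Cone, 3.52 in BC, 1.68 in Rod, 1.14 in MG, 0.0207 in AC and 0 in RGC, a ratio of 102. These 4 genes were nearly as restricted to the column as the opsins.

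Leaving aside the cascade genes and Eif3b, which is described with the isoforms, genes with the next ratios included Ccl9 (a chemokine) at 61.7, Wwc1 (the scaffold KIBRA) at 57.4, Klhl33 at 53.2, Gulo (the last enzyme of vitamin C synthesis, active in mice) at 39.7, Qsox1 (a sulfhydryl oxidase) at 37.1 and the homeobox gene Gsc2 at 33.7. Ccl9 had 232.5 CPM and Gulo 233 CPM in Cone, against at most 9.13 (Rod) and 13.4 (MG). Gsc2 had 108 CPM in Cone, 14.3 in Rod and under 1 CPM in each of the other 4. The dominant Cone isoform of Wwc1 started 103882 bases from the nearest RefSeq start. Whether the Wwc1 counts stand for the full message was not tested. Qsox1 shares 690 exonic bases with a locus named by position on the same strand, so that its counts may have been divided between the 2. The same holds for Pcdh15, described with the outer segment, which shares 338 exonic bases with a locus named by position. On the opposite strand, Gngt2 shares 18 with Abi3 and Gng3 shares 136 with Bscl2.

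**Figure D4:**
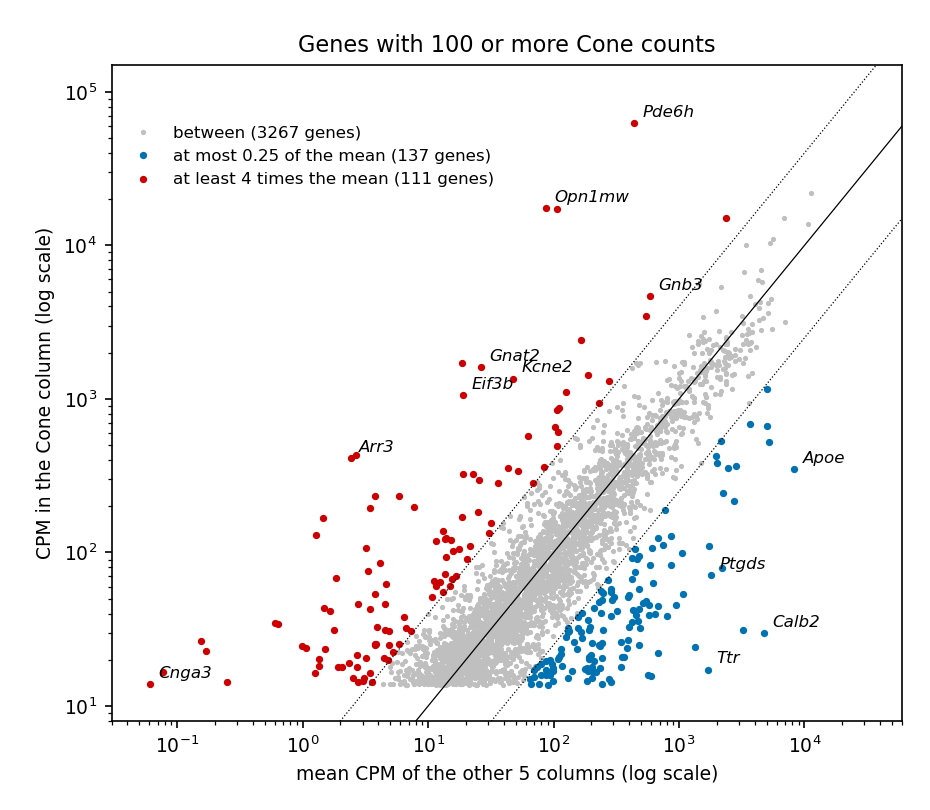
Each of the 3515 genes with its CPM in Cone (y axis, log scale) against the mean CPM of the other 5 columns (x axis, log scale); the solid line is equality and the dotted lines are the 4-fold sizes. The 111 higher genes (red) range up to Pde6h at 62874 CPM, and the 137 lower genes (blue) include Apoe, at 350 CPM in Cone and 8281 on average elsewhere.

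Photoreceptor structure genes were mostly shared with rods. Of 14 genes of the outer segment and cilium, 10 had 100 or more Cone counts, and 2 were higher genes, 0 lower and 8 between, with a median log2 ratio of 1.26 beside -0.02 over all genes. Pcdh15, a protocadherin of the photoreceptor calyx and of hair cells, had 62.3 CPM in Cone, 12.5 in Rod, 8.79 in BC, 1.63 in MG, 0.0207 in AC and 0 in RGC, a ratio of 13.6. Rp1l1, a protein of the axoneme, had 15.2 CPM in Cone and 11.7 in Rod, with a ratio of 6.08. The disc-rim proteins leaned to rods, with Prph2 at 31.9% and Rom1 at 23.8% of the Rod level, and the actin bundler Fscn2 lay lowest of the structural genes at 9.37%.

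No listed transcription factor with enough counts was a higher gene. Of 15 listed, 14 were in the table and 7 had 100 or more Cone counts: 0 were higher, 2 (Nrl and Nr2e3) were lower and 5 lay between. Thrb, the thyroid hormone receptor that is needed for the middle-wavelength opsin, had 83 counts in Cone, below the minimum. Its 11.4 CPM there stood beside 3.95 in Rod, 1.64 in AC, 1.14 in BC, 0.285 in RGC and 0.163 in MG, a ratio of 7.92. Rxrg, the retinoid receptor of cones, was at 116 CPM in Cone and only 2.76 in Rod, but 85.2 in RGC and 40.2 in BC kept its ratio at 3.65. Neurod1 had 561 CPM in Cone, 404 in Rod and 292 in BC, a ratio of 3.79. Crx, the common photoreceptor factor, had 98.9 CPM in Cone and 182 in Rod.

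At the synapse, where cones signal through ribbon release sites, 10 of 20 listed genes had 100 or more Cone counts and the median log2 ratio was 1.46. Rims2, a scaffold of the release site, was the 1 higher gene, at 20.0 CPM in Cone, 10.9 in Rod, 8.24 in BC, 4.08 in AC, 0.652 in MG and 0 in RGC. Snap25, the general membrane-fusion protein, was the 1 lower gene, with 531 CPM in Cone against 6614 in RGC and 3114 in AC. Cplx3 separated cones from rods: this complexin had 42.2 CPM in Cone, 2.83 in Rod, 49.5 in AC and 31.8 in BC. Syp was at 397 CPM in Cone, 421 in BC and 95.4 in Rod. Cplx4 showed the opposite lean, with 396 CPM in Cone and 1027 in Rod.

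Among 12 channels and pumps of the inner segment, 5 had 100 or more Cone counts, and Kcne2 was the only higher gene. Kcne2, an accessory subunit of potassium channels, had 1358 CPM in Cone, 196 in BC, 26.7 in Rod, 13.4 in MG, 0.808 in AC and 0 in RGC, a ratio of 28.7. Kcnv2 was highest in BC (92.97 CPM beside 36.7 in Cone).

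Of 13 retinoid genes, 6 had 100 or more Cone counts. Rbp3, which carries retinoids between cells, was a higher gene at 106 CPM in Cone, 71.3 in Rod, 10.8 in BC, 5.38 in MG, 0.415 in AC and 0 in RGC. Rlbp1, the retinoid carrier of Müller glia, was a lower gene at 20.9 CPM against 1736 in MG. The genes of the pigment epithelium arm (Rpe65, Lrat, Rgr, Rdh5) had 5 or fewer Cone counts each.

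Of 24 genes of sugar use and energy buffering, 21 had 100 or more Cone counts, 19 lay between the sizes, and the median log2 ratio of -0.02 equalled that of all genes to 2 decimals. Hk2, with 59 Cone counts, was highest in Cone at 8.07 CPM, beside 3.86 in Rod. The 2 higher genes were Pygm, the glycogen phosphorylase of muscle, and Ckmt1, a mitochondrial creatine kinase. Pygm had 125 CPM in Cone, 53.8 in BC, 8.97 in MG, 5.61 in Rod, 0.622 in AC and 0 in RGC, a ratio of 9.03. Ckmt1 had 845 CPM in Cone, 286 in Rod, 95.4 in RGC, 73.7 in BC, 43.7 in MG and 35.3 in AC, a ratio of 7.92. The cytosolic kinase Ckb was also far above its rod level, at 10342 CPM in Cone and 2423 in Rod, but BC held 12767. Ldha was at 2579 CPM in Cone and 3893 in Rod, and its sister Ldhb at 348 in Cone and 217 in Rod.

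The lower genes had their highest level in several classes. The 137 made up 1.08% of Cone counts, and in 46 the Cone column was below all others. The rule itself asks for a low Cone value, and the same number over all 3515 genes was not counted, so the 46 are no separate result. Their highest column was MG for 47, RGC for 45, AC for 25, BC for 11 and Rod for 9. Over all 3515 genes the highest other column was Rod for 1114, AC for 713, BC for 603, RGC for 561 and MG for 524. The minimum of Cone counts leaves out genes with few or no Cone counts. With a mean CPM of 10 or more in its place, 725 of 4553 genes were lower genes. Calb2 (calretinin) had 29.97 CPM in Cone, 23012 in RGC, 802 in AC, 104 in Rod, 27.6 in BC and 26.9 in MG. Its ratio of 0.00625 was the lowest among the genes that reached the minimum. Sncg (gamma-synuclein) was at 31.2 CPM in Cone and 15741 in RGC. Ttr, Ptgds and Apoe had their highest column in MG, and Tppp3, Serp2 and S100a10 in RGC. Ttr is also a marker of pigment epithelium, and Rgr and Rpe65 of the same list stood at 304 and 58.4 CPM in MG. Atp6v1g2 and Gng3 were highest in AC, at 1703 and 4940 CPM, against 22.2 and 78.8 in Cone. Of these 10, only Tppp3 and S100a10 were lower in Cone than in all 5 other columns. The ratios of all 10 depended on the classes that held the gene. With RGC left out, the log2 ratio went from -5.79 to -2.13 for Tppp3 and from -5.17 to -3.75 for S100a10.

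Beyond levels, cones chose different isoforms of some genes. In 2295 genes with 2 or more isoforms and at least 100 counts both in Cone and over the other 5 columns, the dominant isoform of Cone was compared with that of the mean of the others. It differed in 212, and in 96 (4.18%) the share of 1 of these isoforms also differed by 25 percentage points or more between Cone and the mean of the others. In 29 of the 96 the difference was 50 points or more. The cone isoform had no Ensembl transcript identifier in 30, and both isoforms had one in 52. The other 1217 genes with enough Cone counts had 1 isoform each in the table.

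The isoform of cones was often that of rods. Among the 96 genes it was also dominant in Rod in 57 (59.4%), in BC in 30 of 95, in MG in 23 of 87, in AC in 9 of 93 and in RGC in 6 of 73, counting classes with 20 or more counts of the gene. In all compared genes the corresponding share was 93.4% for Rod, 90.95% for BC, 88.95% for MG, 85.1% for AC and 83.0% for RGC. The 96 were called for a dominant isoform unlike that of the mean of the others, so lower shares follow in part from the rule. For 25 of the 96 no other class with 20 or more counts of the gene had the cone isoform as its dominant one. Classes with fewer counts were not assessed, and the same number over all compared genes was not counted. The called pairs differed by an alternative first exon in 44.8%, compared with 15.0% of the 2170 other genes with structures. A skipped exon separated 39.6% and 39.4%, and an alternative 3′ splice site 3.13% and 15.9%. In the genes without a call, the pair was the most abundant isoform and the next by mean CPM over the 6 columns. The pairs were thus not chosen alike, and the part of that choice in these contrasts was not tested.

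Bsg encodes basigin, whose long form in photoreceptors carries an additional immunoglobulin domain and takes part in the survival and glucose supply of cones. Its exon 2, chr10:79708697-79709044 (plus strand, 348 bases, coding in Bsg-201), is shown by its first 60 bases in capitals after the end of exon 1, with the junction of exon 1 and exon 3 for comparison:
Bsg, exon 1 joined to exon 2: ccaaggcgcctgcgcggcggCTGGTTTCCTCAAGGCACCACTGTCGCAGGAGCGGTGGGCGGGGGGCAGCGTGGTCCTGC
Bsg, exon 1 joined to exon 3: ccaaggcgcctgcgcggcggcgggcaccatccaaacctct
Exon 2 was present in 87.2% (86.7 to 87.7) of 16655 Bsg counts in Cone and 85.8% (85.5 to 86.0) in Rod. It was present in 62.9% in BC, 19.5% in AC, 2.39% in MG and 0.270% in RGC. Summed over isoforms, Bsg had 2279 CPM in Cone, 1230 in Rod and 9946 in MG, so the photoreceptor columns differed from MG in the opposite direction in level and in use of the exon.

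Atp1b2, the beta-2 subunit of the sodium pump, gained very short exons in photoreceptors. The pair, of 27 and 21 bases (chr11:69602304-69602330 and chr11:69601924-69601944, minus strand, both coding in an annotated transcript of Atp1b2 and both multiples of 3), is shown in capitals:
Atp1b2, both microexons: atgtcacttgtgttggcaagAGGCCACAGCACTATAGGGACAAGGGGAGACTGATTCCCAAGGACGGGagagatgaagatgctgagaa
Atp1b2, the first alone: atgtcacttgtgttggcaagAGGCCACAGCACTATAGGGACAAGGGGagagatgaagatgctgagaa
Atp1b2, neither: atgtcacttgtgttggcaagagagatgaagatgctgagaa
The first was present in 99.1% (98.1 to 99.7) of 698 Cone counts, 99.0% of Rod, 29.9% of BC and 3.61% of AC counts, in 3 of 43 MG counts and in 1 of 110 RGC counts. The second was present in 94.0% (91.95 to 95.6) of Cone, 97.6% of Rod, 10.1% of BC and 0.490% of AC counts, in 3 of 43 in MG and in 0 of 110 in RGC. Summed over isoforms, Atp1b2 had 95.5 CPM in Cone, 84.6 in Rod and 127 in AC.

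Prkcz encodes the atypical kinase PKC-zeta, and a start inside the gene gives the shorter PKM-zeta of brain, which lacks the regulatory part. The long isoform of 18 exons made up 96.8% (94.2 to 98.4) of 311 Cone counts, 95.1% of Rod and 94.0% of the 50 MG counts. It made up 12.6% of BC, 2.23% of AC and 0 of 530 RGC counts, where the 15-exon isoform with the inner start took the rest. Dtnbp1 (dysbindin) was divided likewise: its coding isoform of 10 exons had 81.6% in Cone, 77.3% in Rod, 91.8% in MG and 55.6% in BC, against 22.9% in RGC and 4.86% in AC. For Gpm6b, a membrane proteolipid with many isoforms, the 7-exon Gpm6b-201 had 72.0% of Cone and 81.0% of Rod counts, and 15.0% in AC, 8.39% in BC, 7.14% in RGC and 2.34% in MG.

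A few choices set Cone apart from Rod as well. In Ccdc136 an unannotated isoform of 9 exons, which skips an exon of the main isoform, had 86.9% (81.4 to 91.2) of 198 Cone counts, 8.70% (6.66 to 11.1) of Rod, 39.6% of the 48 MG counts, 1.43% of BC and 2.30% of AC. In Arhgdib, a regulator of small GTPases whose span overlaps that of Pde6h on the opposite strand without shared exonic bases, Arhgdib-203 had 78.4% (75.5 to 81.0) of 893 Cone counts and 23.6% (20.6 to 26.8) of Rod counts. It differs in its first exon from Arhgdib-201, which had 74.8% in Rod and 90.5% in MG. Ccdc30 was represented in cones by an unannotated fragment of 1 exon, with 85.2% of 338 counts beside 38.3% of 94 in Rod, where it was also the most used.

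Ifitm10 and Lcn2 were also among the 10 genes with the largest difference, and in each an unannotated isoform with another first exon led in both photoreceptors. It had 85.5% in Cone and 81.2% of the 69 Rod counts for Ifitm10, and 78.4% in Cone and 73.0% in Rod for Lcn2. Lcn2 encodes a secreted protein that binds iron-carrying siderophores, and in MG that isoform had 0.192% of 521 counts.

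**Figure D5:**
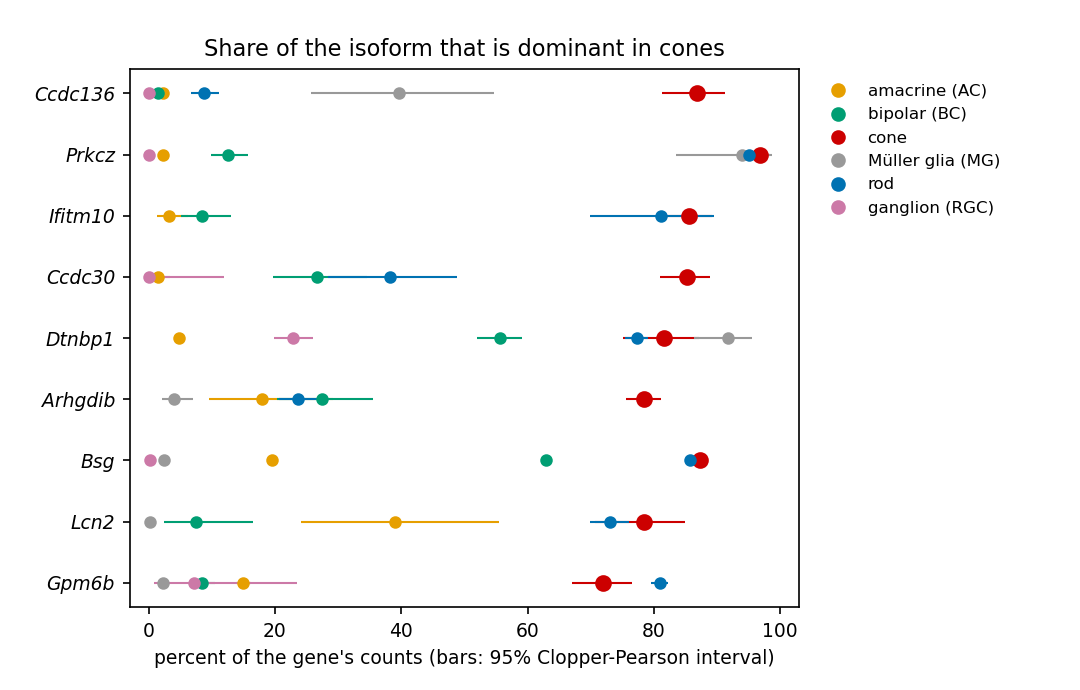
Share of the cone-dominant isoform in the counts of its gene (percent, x axis, with 95% Clopper-Pearson intervals) for 9 of the 10 genes with the largest difference; classes with under 20 counts of the gene are not drawn. Rod lies beside Cone for Prkcz, Ifitm10, Dtnbp1, Bsg, Lcn2 and Gpm6b, and far below it for Ccdc136 and Arhgdib (23.6% against 78.4%).

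Among 14 genes with exons known from photoreceptors, 8 had 100 or more Cone counts. Ttc8, a protein of the Bardet-Biedl complex, used its 15-exon isoform in 94.9% of Cone counts, 96.1% of Rod, 39.0% of BC, 31.4% of MG and 8.83% of AC. Arl6, a small GTPase, was a higher gene (1304 CPM in Cone, 830 in Rod). The 9-exon isoform of Arl6 had 98.9% of Cone, 98.5% of Rod, 98.2% of BC, 66.6% of AC, 57.9% of MG and 26.3% of RGC counts. Impdh1, a guanine nucleotide enzyme with retinal variants, had 91.99% of its 2783 Cone counts on isoforms without an Ensembl identifier, 95.4% in Rod, 86.1% in MG, 76.3% in BC, 19.9% in AC and 0% of 44 counts in RGC. Reep6, a trafficking protein of rods, was a lower gene, at 17.2 CPM in Cone and 322 in Rod.

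Unannotated isoforms were 497 of the 3904 isoforms with 100 or more Cone counts. Those with the most Cone counts were of Cst3 (32704 counts), Opn1mw (the one without exon 4 alone, 19597) and Sag (14694). Those of Cst3 and Sag had only 14.2% and 24.8% of their summed CPM in Cone: the Cst3 isoform was highest in MG (11998 CPM, beside 11472 in Rod) and the Sag isoform in Rod. The Cst3 isoform held all Cst3 counts in every class column, so its level is that of the gene. Of unannotated isoforms with 80% or more of their summed CPM in Cone, the 3 with the most counts were all opsin isoforms. These were the Opn1mw isoform just named (97.5%), the Opn1sw isoform with the longer exon 3 (13242 counts, 96.8%) and the Opn1mw isoform without exons 4 and 5 (10232 counts, 97.7%).

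Eif3b, a subunit of a translation initiation factor made by all cells, was a higher gene through a short isoform, and with Ensembl transcripts alone its log2 ratio was -1.33. It had 7739 counts in Cone (1059 CPM), 41.3 CPM in Rod, 15.9 in AC, 12.7 in BC, 12.5 in RGC and 12.2 in MG. An unannotated isoform of 4 exons from the last part of the gene (chr5:140441639-140443360, plus strand) held 7710 of the Cone counts, 99.6% (99.5 to 99.7). The full isoform of 19 exons held 29. The share of the short isoform was 71.2% in Rod, 65.7% in BC, 49.3% in MG, 5.59% in AC and 0% of 44 counts in RGC.

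The start regions of cone genes were searched for short motifs known from photoreceptors. TAATCC is the core bound by factors of the CRX and OTX family, and AGGTCA is the core recognised by nuclear receptors. The search covered both strands of the 250 bases before RefSeq starts (GRCm38.p6), matched by symbol and nearest to the start of the dominant cone isoform for 2784 genes. TAATCC was present in 13 of 80 higher genes (16.3%), 6 of 101 lower genes (5.94%), 6.32% of the 2784 and 6.25% of all 32851 promoters. AGGTCA was present in 14 of 80 (17.5%), 9 of 101 (8.91%), 11.03% and 14.02%. With the start within 100 bases of the isoform's own, TAATCC was in 11 of 51 higher genes, 3 of 72 lower genes and 149 of all 2302 genes (6.47%). Of the 6 cone cascade genes matched, TAATCC was in 1, Gnat2, and AGGTCA in 1, Opn1sw. A match is only a run of letters, and no binding was measured. Among the 20 highest ratios TAATCC was in 4 of 16 matched genes, and 2 of them are shown with Opn1sw, motifs in capitals on either strand:
Gsc2, chr16:17915060-17915277, minus strand: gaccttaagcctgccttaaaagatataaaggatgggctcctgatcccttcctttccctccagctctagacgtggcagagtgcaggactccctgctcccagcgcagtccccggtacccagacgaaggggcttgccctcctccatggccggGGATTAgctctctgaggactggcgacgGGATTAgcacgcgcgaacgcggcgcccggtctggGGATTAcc
Otop3, chr11:115334484-115334730, plus strand: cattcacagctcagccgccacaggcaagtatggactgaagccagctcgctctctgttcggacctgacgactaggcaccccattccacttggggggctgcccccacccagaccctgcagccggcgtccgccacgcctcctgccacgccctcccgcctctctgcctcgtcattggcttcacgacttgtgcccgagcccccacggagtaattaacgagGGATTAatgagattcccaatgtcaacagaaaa
Opn1sw, chr6:29380514-29380763, minus strand: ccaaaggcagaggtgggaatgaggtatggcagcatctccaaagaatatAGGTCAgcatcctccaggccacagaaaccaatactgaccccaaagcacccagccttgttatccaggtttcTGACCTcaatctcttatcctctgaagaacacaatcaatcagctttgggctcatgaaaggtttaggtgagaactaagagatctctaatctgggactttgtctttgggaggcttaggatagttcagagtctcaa
The Gsc2 window holds TAATCC at 3 places, starting 101, 74 and 40 bases before the RefSeq start, and the Otop3 window at 1, starting 35 bases before it. The Opn1sw window holds AGGTCA at 2 places, starting 202 and 132 bases before the start, and no TAATCC. Bases that lie in an annotated exon, 32 in Gsc2 and 3 in Otop3, were left out at the end.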

How the data were processed

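The deposited table holds raw counts per isoform for 6 cell class columns that name no library and were taken as pooled over cells. Per the submitters' processing notes the build was mm10, and isoform names and models carry the form of FLAIR output per the file contents. The aligner, the cell typing, the use of strand and whether a count is a read or a molecule are not given in the sources used here. Identifiers were split into isoform and gene, columns were scaled to CPM and isoforms were summed per gene. There were 0 unused columns of values. GENCODE M21 gave symbols for 13448 of 13452 Ensembl genes.

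A gene was called at a ratio of 4 or more, or 0.25 or less, of its Cone CPM to the mean of the other 5 columns, and a dominant isoform at a difference of 25 percentage points. No p-value was possible, as each class is 1 column. Named were members of the gene lists, the 20 highest and 10 lowest ratios, the 10 largest isoform differences and 6 unannotated isoforms, besides Ensembl genes given for a count or said to be chosen after their values were seen. Some genes under these rules are not reported here. The genes, lists and rules were chosen with earlier results of these data known. The depth ran from 3509890 to 55437340 counts per column, and intervals are exact at 95%. Alternatives were other scalings, minimums, ratios, reference columns and isoform sets. The rules for the calls were tested on simulated data with known changes, which does not test the calls made in these pooled columns. Python 3.11.15, pandas 2.3.3, numpy 2.4.6, scipy 1.17.1 and matplotlib 3.10.9 were used.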

Additional observations from a re-analysis of the deposited data

How the results depend on the processing

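No paired analysis was possible because each class is a single column without replicates. The spread between animals is therefore unknown, and 12 genes sit exactly at the minimum of 100 counts. The main calls were 111 higher and 137 lower genes of 3515, and 96 dominant isoforms of 2295 genes compared (4.18%). Counts of higher and lower genes were 249 and 421 of 6196 at a minimum of 20 Cone counts, and 56 and 28 of 1592 at 500. They were 70 and 725 of 4553 with a mean CPM of 10 or more in place of the minimum. Among the 3515 they were 355 and 401 at a ratio of 2, and 56 and 63 at a ratio of 8. Against the median of the other 5 columns they were 301 and 53, and against the highest (for lower genes, the lowest) of them 44 and 0. Without the Rod column 265 genes were higher. Median of ratios scaling moved the median log2 ratio by 0.16 and gave 136 and 122, so that higher genes were 52.7% of calls in place of 44.8%. Dominant isoforms numbered 337 of 4248 genes (7.93%) at a minimum of 20 counts, and 26 of 886 (2.94%) at 500. They numbered 29 of 2295 (1.26%) at a difference of 50 points, and 50 of 1269 (3.94%) with Ensembl transcripts alone. A mean of the 5 shares gave 96, of which 67 were among the main 96. Of 301 comparisons over 31 named genes, 280 stayed past 4-fold in the same direction and 8 changed sign. Eif3b had a log2 ratio of -1.33 with Ensembl transcripts alone. Against the lowest other column the log2 ratio was 0.16 for Calb2, 0.65 for Sncg, 0.12 for Serp2, 1.5 for Atp6v1g2, 0.82 for Gng3, 7.96 for Ptgds and 5.36 for Apoe. No such ratio could be formed for Ttr, which had 0 counts in RGC, so Ttr is not among the 8. Without the MG column the log2 ratio was -0.73 for Ttr, -0.74 for Ptgds and -0.59 for Apoe. The cause of these moves was not tested beyond what each setting changes by construction. Depth limits the RGC column most, where 0 counts allow 0.855 CPM.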

Other observations

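Outside the lists and the 20 highest ratios, 71 higher genes remained, and the 10 with the most Cone counts are given here, chosen after their values were seen. Gzmm, a granzyme protease best known from lymphocytes, had 2409 CPM in Cone, 441.5 in BC, 329.5 in Rod, 44.8 in MG, 16.0 in AC and 0 in RGC, a ratio of 14.5. Acbd6, an acyl-CoA-binding protein, had 1103 CPM in Cone and only 35.4 in Rod, with 263.5 in BC and 162 in AC. Oaz1, the antizyme that limits polyamine synthesis, had 613 CPM in Cone, 313 in BC and 131 in Rod. The other 7 had Rod as the second-highest or the highest column. Rtbdn, a retbindin that binds riboflavin, stood at 1426 CPM in Cone and 820 in Rod. Plekhb1 stood at 573.5 and 198, Hspb6, a small heat shock protein, at 872 and 356, Ankrd33 at 660 and 460, Krt18 (a keratin) at 492 and 346, and Lgalsl at 361 and 170. Fabp12, a fatty acid-binding protein, was higher in Rod, at 1012 CPM, than in Cone, at 941.5.

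Of the higher genes, 7 were loci with a position in place of a gene identifier. The one with the most Cone counts, chr19:56724254-56724717 with 1 exon, had 323 CPM in Cone and 99.2 in BC. A locus of 2 exons at chr3:58616300-58621213 had 196 CPM in Cone, 7.11 in Rod, 3.75 in MG, 3.42 in RGC, 2.34 in BC and 0.622 in AC, a ratio of 56.8. A locus of 1 exon at chr5:128601795-128604093 had 121 counts in Cone, 8 in BC, 6 in Rod and 0 in AC, MG and RGC, a ratio of 216. Myl6, a myosin light chain made by all 6 classes and also chosen after its values were seen, used the 7-exon Myl6-206 in 94.1% of Cone counts, 92.4% in Rod, 74.1% in MG, 33.3% in AC, 19.8% in BC and 11.95% in RGC.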
